A study of Rattus norvegicus with 174 samples.

Results

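The nuclear genes for succinate dehydrogenase (complex II), the cytochrome bc1 complex (complex III), cytochrome oxidase (complex IV) and the ATP synthase (complex V) were followed in 6 tissues of rats that inhaled phosphine or air. Members were all genes whose array symbol starts with Uqcr, Cox4, Cox5, Cox6, Cox7, Cox8 or Atp5, together with Cyc1, Cycs and Sdha to Sdhd. They had to be the only gene listed on their probe set, and a gene with several was represented by the brightest, by its mean across the arrays. This gave 44 of the 13438 genes measured: 4 of complex II, 8 of complex III, 16 of complex IV and 16 of complex V. Cycs, Uqcrb, Atp5f1c, Atp5mc2, Cox6c and Cox7a2 are listed only on probe sets of several genes and were not analysed here. Cox6c-ps1, named as a pseudogene, met the rule and stayed in.

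The rats were male Sprague-Dawley animals, an outbred stock. Exposed rats breathed 660 ppm phosphine (PH3), a fumigant gas, for 32.2 min. The labels give the dose as 21252 ppm x min and as 0.91 times the median lethal one. Air rats breathed 0 ppm for the same 32.2 min, and all rats were killed by exsanguination under ketamine and xylazine. At 1, 3, 6 or 24 h after exposure, the brain, the heart, a kidney sample, liver and lung came from 4 exposed and 4 air rats per time, except that 2 air rats were sampled at 6 h. Blood was drawn by heart puncture, from 4 exposed and 4 air rats at 1 and 3 h, from 5 exposed rats and 1 air rat at 6 h, and from 2 exposed rats with no air rat at 24 h. The 174 arrays came from 33 rats, of which 30 gave all 5 solid tissues and 3 gave blood only, and each tissue has its own air rats' arrays at each time. Values are log2 signals, differences are log2 phosphine minus air ± the standard error (SE) of the fit, and padj is the p of limma's moderated two-sided test after Benjamini-Hochberg adjustment over all genes. A member with padj under 0.05 is said to have been called, and all 44 members were tested, with no filter on dim probe sets.

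In the inner mitochondrial membrane, complex II passes electrons from succinate to ubiquinone, complex III passes them on to cytochrome c, and complex IV hands them to oxygen. Complexes III and IV pump protons, and the ATP synthase uses the proton gradient to make ATP. Phosphine has long been described as an inhibitor of cytochrome oxidase activity in isolated mitochondria, which is a matter of enzyme activity and not of transcript level. Several subunits of complex IV come as isoform pairs of which 1 partner is typical of heart and skeletal muscle (Cox6a2, Cox7a1, Cox8b) and the other of most tissues (Cox6a1, Cox8a). Cox4i2 is an alternative form of the subunit Cox4i1 that is known from lung.

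Promoters of members are shown because many genes of the respiratory chain are known targets of a few shared factors. RefSeq (assembly GRCr8) gave the 300 bases around the start, 250 before and 50 from it on, for 38 of the 44 members. Atp5pd, Cox4i2, Cox6a1, Cox6c-ps1, Cyc1 and Uqcr11 had no entry. Searched on both strands were CGCATGCG (NRF1), CCGGAAG (ETS factors such as GABPA), TCAAGGTCA (ERR receptors) and TGACGTCA (CREB), of which the first and the last read the same on both strands. The NRF1 letters stood in 5 of 38 member windows (13.2%) and in 1.66% of all 33469 promoter windows of the table, and the ETS letters in 13 of 38 (34.2%) and 8.75%. The ERR letters stood in 2 of 38 (5.26%) and 0.433%, and the CREB letters in 2 of 38 (5.26%) and 1.83%. The 5 runs below are the 250 bases before the start of those called members that hold such letters there, written 5′ to 3′ on the gene's own strand, with the matches in capitals and on either strand. Uqcrc1 and Cox8a were called higher in lung at 3 h, and Sdhb, Uqcrc2 and Atp5mc3 were called lower in blood at 3 h.
Uqcrc1 (chr8:118467973-118468222, plus strand): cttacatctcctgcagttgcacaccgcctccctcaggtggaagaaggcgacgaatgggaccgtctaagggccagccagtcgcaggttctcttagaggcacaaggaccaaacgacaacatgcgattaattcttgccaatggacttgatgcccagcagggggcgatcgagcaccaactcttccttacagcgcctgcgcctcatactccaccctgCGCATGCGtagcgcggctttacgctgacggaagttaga
Cox8a (chr1:213833624-213833873, minus strand): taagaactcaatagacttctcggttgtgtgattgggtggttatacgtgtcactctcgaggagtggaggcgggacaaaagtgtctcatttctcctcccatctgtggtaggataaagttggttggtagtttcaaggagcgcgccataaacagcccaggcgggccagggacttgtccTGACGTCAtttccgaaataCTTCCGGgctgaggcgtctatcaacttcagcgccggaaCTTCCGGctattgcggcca
Sdhb (chr5:158547684-158547933, plus strand): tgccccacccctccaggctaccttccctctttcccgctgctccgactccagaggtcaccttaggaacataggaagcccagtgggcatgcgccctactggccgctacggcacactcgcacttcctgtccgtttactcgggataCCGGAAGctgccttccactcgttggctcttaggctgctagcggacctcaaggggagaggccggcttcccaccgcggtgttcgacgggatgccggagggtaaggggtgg
Uqcrc2 (chr1:184598990-184599239, plus strand): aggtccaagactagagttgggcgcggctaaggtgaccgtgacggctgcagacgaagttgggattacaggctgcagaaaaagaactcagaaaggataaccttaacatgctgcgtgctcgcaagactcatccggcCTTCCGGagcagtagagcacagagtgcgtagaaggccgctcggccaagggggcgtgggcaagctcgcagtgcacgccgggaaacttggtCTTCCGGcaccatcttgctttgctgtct
Atp5mc3 (chr3:79220665-79220914, minus strand): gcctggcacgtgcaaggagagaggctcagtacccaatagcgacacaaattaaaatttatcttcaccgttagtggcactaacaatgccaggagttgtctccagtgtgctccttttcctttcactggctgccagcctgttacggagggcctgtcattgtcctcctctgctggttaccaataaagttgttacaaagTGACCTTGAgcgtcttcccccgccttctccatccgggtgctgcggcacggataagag
Uqcrc1 holds the NRF1 letters, which begin at base -38 from its start. Cox8a holds the CREB letters and the ETS letters at 2 places, Sdhb the ETS letters once and Uqcrc2 at 2 places, and Atp5mc3 the ERR letters. The CREB letters of Sdhb begin at base 4 from its start and lie outside the run shown. The called members Atp5f1b, Atp5pb and Uqcrfs1 hold none of the 4 motifs in their window, which says only that these letters are not there.

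In air rats, most members were highest in heart. The mean over the 14 air arrays of a tissue was highest in heart for 35 of the 44 members, and for 28 of these every heart array lay above every other solid-tissue array. Kidney had the highest mean for 5 members, liver and lung for 2 each, and lung the lowest mean of the solid tissues for 36. The median distance between the highest and the lowest solid tissue was 2.001 log2 over the members. The labels do not state if the tissues were normalized in 1 run, so these are levels as deposited and were not tested. Cyc1, the cytochrome c1 subunit of complex III, stood at 12.25 ± 0.10 (SD, n = 14) in heart, 11.32 ± 0.06 in kidney, 10.57 ± 0.11 in brain, 10.27 ± 0.10 in liver, 9.39 ± 0.23 in lung and 8.81 ± 0.26 (n = 9) in blood. Sdhb, the iron-sulfur subunit of complex II, ran from 12.08 ± 0.05 in heart to 9.55 ± 0.15 in lung and 8.19 ± 0.31 in blood. Atp5f1b, the catalytic beta subunit of the ATP synthase, was at 13.00 ± 0.05 in kidney and 12.98 ± 0.05 in heart, which overlap. Atp5if1, the inhibitor that keeps the ATP synthase from running backwards, had another order, with 11.56 ± 0.26 in blood, 10.13 ± 0.08 in kidney and 8.10 ± 0.10 in liver.

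The muscle isoforms of cytochrome oxidase set heart apart most. Cox6a2 was at 12.83 ± 0.09 in heart and 2.91 ± 0.25 in kidney, 9.92 log2 lower. Cox8b was at 12.97 ± 0.06 in heart, 8.07 ± 0.76 in lung, 6.44 ± 0.81 in kidney and 3.28 ± 0.46 in liver. Cox7a1 was at 9.81 ± 0.30 in heart, 7.41 ± 0.33 in lung and 4.21 ± 0.28 in liver. The partners Cox6a1 and Cox8a were highest in kidney, at 12.05 ± 0.10 and 12.58 ± 0.08, and only for Cox8a did every kidney array lie above all other solid-tissue arrays. Cox4i2 was highest in lung, at 5.87 ± 0.51, but its lung and heart arrays overlapped, since the air heart of Rat733 at 3 h stood at 6.01. The spread of Cox6a2 in lung (SD 1.19) and of Cox8b in lung and kidney was many times that of the same genes in heart.

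**Figure D1:**
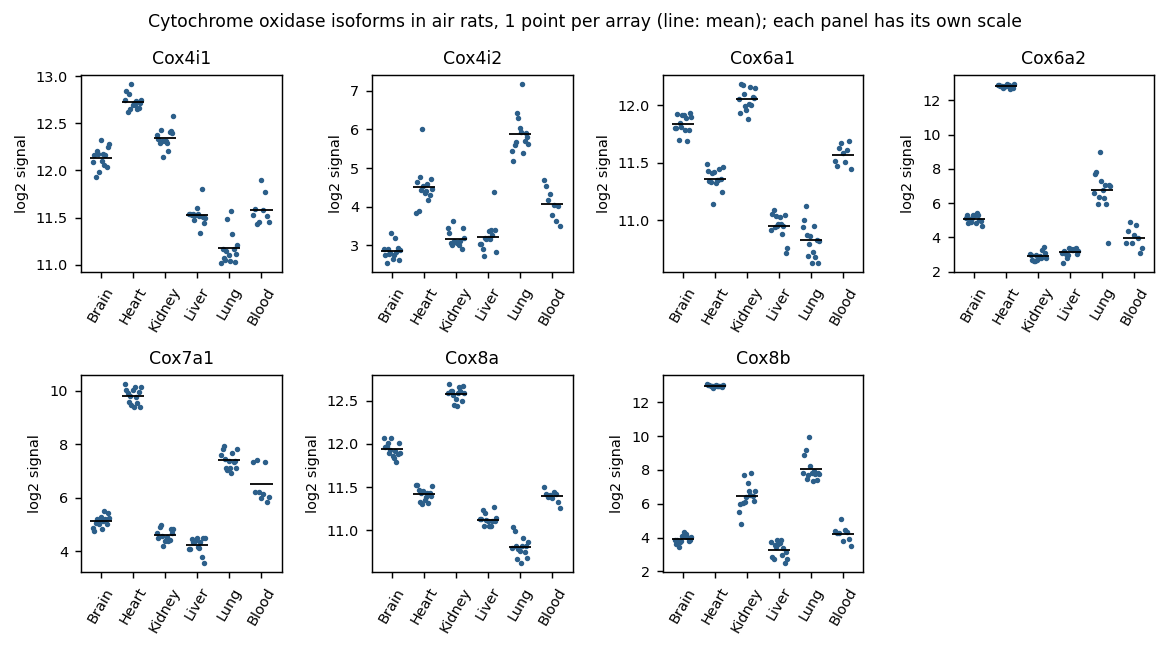
Log2 signal (vertical axis, a scale per panel) of 7 cytochrome oxidase isoform genes in air rats by tissue (horizontal axis), with 1 point per array, 14 per solid tissue and 9 in blood, and a line at the mean. Cox6a2, Cox7a1 and Cox8b stand highest in heart, Cox6a1 and Cox8a in kidney, and Cox4i2 in lung with 1 heart array among the lung arrays.

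Each solid tissue held its own cell markers, with list means over its arrays of 10.19 to 10.61 log2 for neuron genes in brain, 10.98 to 12.61 for cardiomyocyte genes in heart, 10.79 to 11.21 for proximal tubule genes in kidney, 12.61 to 12.86 for hepatocyte genes in liver and 12.11 to 12.57 for alveolar and airway genes in lung. On some arrays a marker list of another organ stood at least 4 log2 above the tissue's median. These were the exposed hearts of Rat729 (3 h, hepatocyte), Rat741 (24 h, hepatocyte) and Rat749 (24 h, lung epithelium), the air kidney of Rat720 (1 h, hepatocyte) and the exposed livers of Rat719 (1 h, skeletal muscle) and Rat741 (24 h, kidney). In lung they were exposed Rat716 (1 h, hepatocyte), exposed Rat729 and air Rat733 (3 h, skeletal muscle). Group differences of members in heart, in liver at 1 and 24 h and in lung at 3 h are also given without them.

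Phosphine against air, 10 calls of members were made in 23 comparisons. They fell in lung at 3 h, where 7 members were higher, and in blood at 3 h, where 3 were lower, and in the other 21 comparisons limma called 0 members. The 95% intervals of the differences bound what was missed in the solid tissues: from 36 to 43 of the 44 members had an interval within a 1.5-fold change either way. In blood 0 to 20 members did. In bulk tissue, fewer cells of a type and less RNA per cell cannot be told apart.

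**Figure D2:**
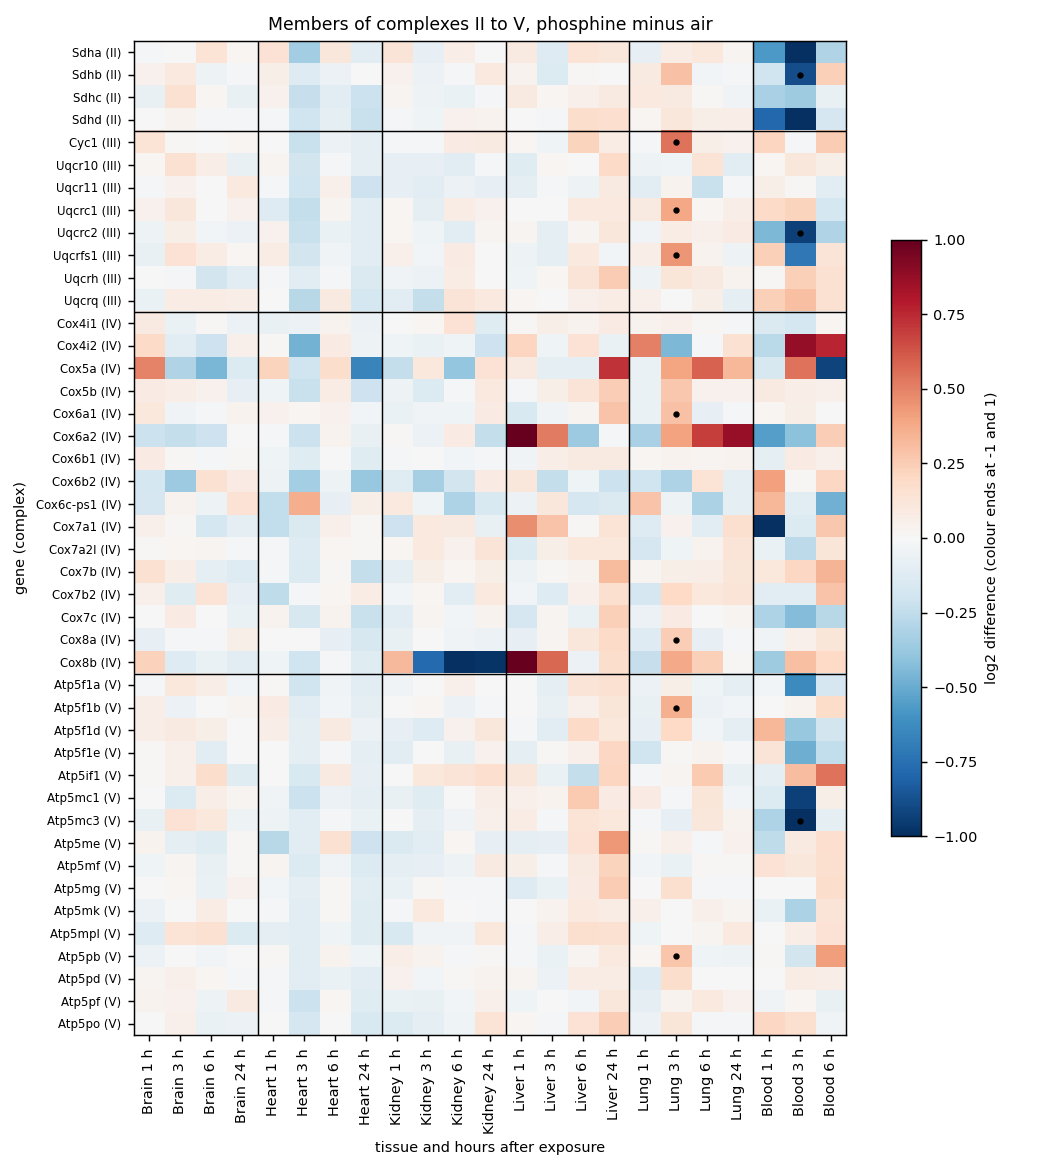
Difference phosphine minus air (colour, log2, ending at -1 and 1) of the 44 members (rows, by complex) in the 23 comparisons (columns, by tissue and hours), with a dot on the 10 called differences. The 7 dots of lung at 3 h are on rises and the 3 dots of blood at 3 h on falls, and in the heart columns at 3 and 24 h, 42 and 40 of the 44 members are below 0, the others being of complex IV.

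Brain and kidney gave 0 called members at every time. In brain, limma called 0.149% of all genes at 1 h, 0.506% at 3 h and 0% at 6 and 24 h. The median member difference lay between -0.01 and 0.03 there, and at an unadjusted p under 0.05 stood 0, 2, 0 and 0 members against 11%, 8.65%, 5.64% and 3.79% of all genes. In kidney, 3.12% of all genes were called at 1 h, 6.39% at 3 h, 0.35% at 6 h and 0% at 24 h. At an unadjusted p under 0.05 stood 2, 3, 0 and 2 members against 17.4%, 19.6%, 10.1% and 5.5% of all genes. The members' shares, at most 6.82%, were the smaller at each of these times. The largest kidney difference at each time was that of the muscle isoform Cox8b. Its kidney values at 3 h were 6.62, 5.48, 5.21 and 6.99 in exposed and 7.72, 6.12, 6.38 and 7.21 in air rats, which overlap. The difference was -0.78 ± 0.70 at 3 h (padj = 0.60), -1.26 ± 0.85 at 6 h (padj = 0.71) and -0.98 ± 0.70 at 24 h (padj = 0.97).

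In lung at 3 h, 7 of the 44 members (15.9%) were called, all higher, against 11.6% of all genes in either direction and 5.84% higher. Of these, 3 belong to complex III (Cyc1, Uqcrfs1, Uqcrc1), 2 to complex IV (Cox6a1, Cox8a) and 2 to the ATP synthase (Atp5f1b, Atp5pb), and none to complex II. At an unadjusted p under 0.05 stood 12 members, all higher (27.3%, beside 25.3% of all genes in either direction). The median difference over all 44 members was 0.08, beside 0.01 over all genes. Cyc1 stood at 10.16, 10.10, 9.92 and 9.45 in exposed Rat728, Rat729, Rat730 and Rat731, and at 9.11, 9.67, 9.43 and 9.27 in air Rat732, Rat733, Rat738 and Rat739. The groups overlapped through Rat731, the lowest exposed rat, and Rat733, the highest air rat. The difference was 0.54 ± 0.14 (1.45-fold, padj = 0.0098).

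Uqcrfs1, the Rieske iron-sulfur subunit of complex III, stood at 10.46, 10.35, 10.04 and 9.92 in the exposed rats and at 9.56, 10.05, 9.80 and 9.59 in the air rats. Its groups overlapped, with exposed Rat730 and Rat731 below air Rat733, and it differed by 0.44 ± 0.11 (1.36-fold, padj = 0.0088). Uqcrc1, a core subunit of complex III, stood at 10.40, 10.26, 10.23 and 10.00 in exposed and at 9.62, 10.23, 9.67 and 9.82 in air rats. Its difference was 0.39 ± 0.12 (1.31-fold, padj = 0.039). Air Rat733 again lay among the exposed rats.

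Atp5f1b stood at 11.97, 11.83, 11.79 and 11.59 in exposed and at 11.28, 11.54, 11.53 and 11.42 in air rats, with no overlap, and differed by 0.35 ± 0.08 (1.28-fold, padj = 0.0026). Cox6a1 stood at 11.13, 11.01, 11.11 and 10.90 in exposed and at 10.69, 10.80, 10.87 and 10.63 in air rats, with no overlap (0.29 ± 0.09, padj = 0.044). Cox8a stood at 11.04, 11.04, 10.89 and 10.84 in exposed and at 10.67, 10.79, 10.76 and 10.62 in air rats, also with no overlap (0.24 ± 0.08, padj = 0.047). These were the 3 members whose exposed rats all lay above the air rats, 6.82% of the members beside 9.08% of all genes. Atp5pb, a stalk subunit of the ATP synthase named here after its values were seen, differed by 0.28 ± 0.08 (padj = 0.022).

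The other members of lung at 3 h ran from -0.45 to 0.41 and were not called. Cox4i1 differed by 0.05 ± 0.09 (padj = 0.80), Atp5f1a, the alpha subunit of the ATP synthase, by 0.06 ± 0.09 (padj = 0.74), and Atp5if1 by 0.03 ± 0.11 (padj = 0.91). Sdhb differed by 0.30 ± 0.10 (padj = 0.067) with overlap. Cox4i2 lay below every air rat, at 5.58, 5.86, 5.72 and 5.74 against 6.42, 6.29, 6.04 and 5.94 (-0.45 ± 0.25, padj = 0.27). At 1 h it lay above every air rat, at 6.01, 6.21, 5.77 and 5.91 against 5.45, 5.19, 5.59 and 5.67 (0.50 ± 0.25, padj = 0.29). Neither difference was called.

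**Figure D3:**
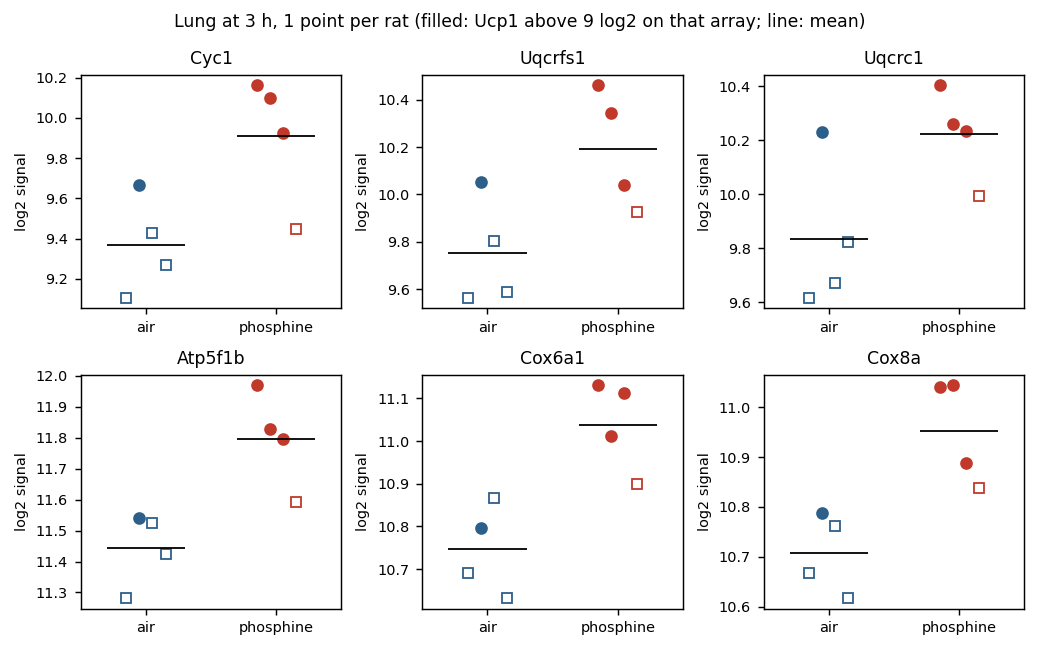
Log2 signal (vertical axis, a scale per panel) of 6 called members in lung at 3 h in air and phosphine rats, with 1 point per rat and a line at the mean. Filled points are arrays with Ucp1 above 9 log2, which are 3 of the 4 exposed rats and 1 of the 4 air rats. They lie above the open squares of their group in every panel but that of Cox6a1.

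The same lung arrays carried transcripts of brown fat, a tissue very rich in mitochondria. Ucp1, the uncoupling protein of brown fat, stood at 10.94, 10.61 and 9.97 in exposed Rat728, Rat729 and Rat730 and at 2.97 in exposed Rat731. It stood at 10.90 in air Rat733, at 6.68 in air Rat739, and at 2.70 and 2.80 in the other air rats. Cidea, a lipid droplet protein of brown fat, followed it with 10.15 in Rat728 and 9.77 in Rat733, while Elovl3 and Dio2, further brown fat genes, were at most 2.68 and 3.09 on any of these 8 arrays. The mean of the 4 brown fat genes ran from 3.46 to 6.61 in exposed and from 3.29 to 6.59 in air rats. Skeletal muscle genes also stood high in exposed Rat729 and air Rat733, with list means of 9.19 and 10.19 against a lung median of 3.71. The median of the 44 members was 10.22, 10.16 and 10.06 in the exposed rats with high Ucp1 and 10.17 in air Rat733, and between 9.82 and 9.93 in the 4 other rats. Neutrophil genes averaged 6.25 to 6.70 in exposed and 5.44 to 5.97 in air lungs and macrophage genes 6.96 to 7.06 and 6.56 to 6.92, with no overlap in either list. B lymphocyte genes averaged 4.70 to 6.00 and 5.77 to 6.57, and the part of these cells in the members' rise was not tested. RNA integrity, as the 3' minus 5' difference of control transcripts, differed by 0.04 (two-sided exact permutation p = 0.69).

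Without the muscle-bearing arrays of Rat729 and Rat733, 5 members were called and the median was 0.13. Without the 4 arrays with high brown fat genes, 1 exposed rat remained against 3 air rats, and 0 members were called, with 0 at an unadjusted p under 0.05 (1.16% of all genes called). The lone exposed rat is then assumed to vary like the other groups. The median member difference became -0.04. Cyc1 differed by 0.18 ± 0.17 (padj = 0.83), Uqcrfs1 by 0.27 ± 0.13 (padj = 0.46), Uqcrc1 by 0.29 ± 0.17 (padj = 0.58) and Atp5f1b by 0.18 ± 0.11 (padj = 0.62). Among rats with high Ucp1, Atp5f1b stood at 11.79 to 11.97 in the 3 exposed rats and at 11.54 in the air rat, and among the others at 11.59 in the exposed rat and at 11.28 to 11.53 in the 3 air rats. Cyc1 stood at 9.92 to 10.16 against 9.67 among rats with high Ucp1, and at 9.45 against 9.11 to 9.43 among the others. In both sets 1 group had a single rat, and the part of brown fat in the rise was not tested.

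**Figure D4:**
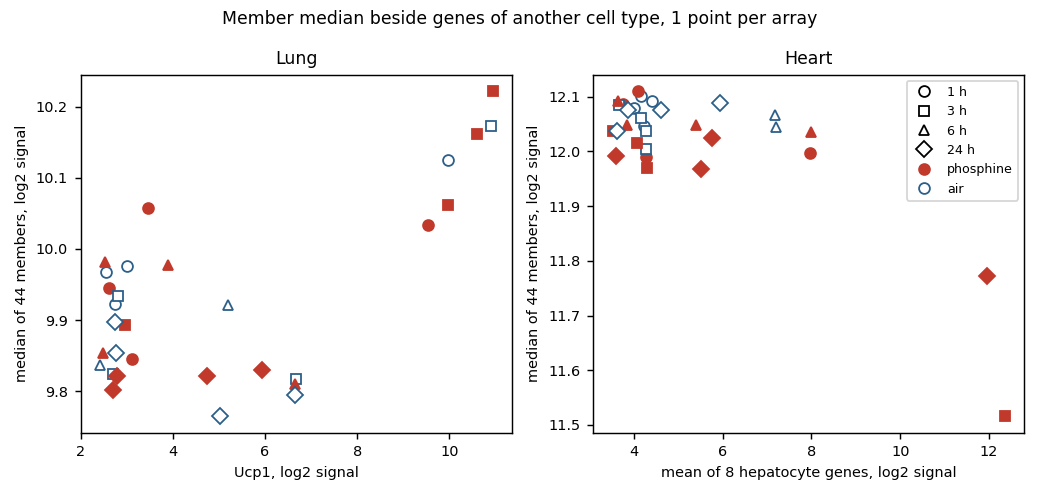
Median log2 signal of the 44 members (vertical axis) against Ucp1 in lung (left) and against the mean of 8 hepatocyte genes in heart (right), with 1 point per array, 30 in each panel, by time (shape) and exposure (colour). The 6 lung arrays with Ucp1 above 9 have member medians of 10.03 to 10.22, and the 2 heart arrays with the highest hepatocyte mean have the lowest member medians, 11.52 and 11.77.

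At 1 h the lung of exposed Rat710 and of air Rat726 had Ucp1 at 9.53 and 9.98, so that both groups held such an array. The exposed lung of Rat716 at 1 h carried hepatocyte genes at 11.70, against a lung median of 4.04. Its member median of 10.06 was the highest of the exposed rats, and the air rats ran from 9.92 to 10.13. Of the members 0 were called then (5.8% of all genes), 2 stood at an unadjusted p under 0.05 (18.2%), and the median difference was -0.05. At 6 h 0 members were called (0.0967% of all genes) and 0 stood at an unadjusted p under 0.05 (8.8%). At 24 h the counts were again 0 and 0, beside 0.00744% and 3.16% of all genes. In the test of equal effects over the 4 times, 1 member was called in lung (6.38% of all genes), and that was Atp5f1b (padj = 0.027). Its difference was -0.08 ± 0.08 at 1 h, 0.35 ± 0.08 at 3 h, -0.06 ± 0.09 at 6 h and -0.03 ± 0.08 at 24 h. The count over times fell to 0 without Rat728, Rat729, Rat730, Rat732 or Rat739, and was 2 without Rat731, Rat733, Rat762 or Rat763. The same test called 0 members in brain (0.0893% of all genes), heart (0.424%), kidney (1.75%) and liver (0.476%). At an unadjusted p under 0.05 stood 2 members in brain, 1 in heart, 2 in kidney, 6 in liver and 9 in lung, beside 8.95%, 11%, 16.8%, 10.2% and 21% of all genes.

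The count of 7 called members in lung at 3 h moved with single rats. It was 3 without exposed Rat728 or Rat729 or air Rat732, 4 without exposed Rat730 or air Rat739, and 9 without exposed Rat731. In a fit of only the 2 groups compared, none of the 7 was called and Cox4i2 was called lower, and quantile normalization left 3 members called.

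Between the 5 solid tissues at 3 h, 10 members (22.7%) differed in their response, against 14.4% of all genes, and 18 stood at an unadjusted p under 0.05, beside 27.5% of all genes. They were all of complex II but Sdhd, the called complex III members, Cox5b, Atp5f1a, Atp5f1b and Atp5pb. Atp5f1b differed by 0.35 ± 0.08 in lung and by -0.06 ± 0.07 in brain, -0.11 ± 0.07 in heart, 0.02 ± 0.05 in kidney and -0.08 ± 0.07 in liver (padj of the difference 3.6e-05). Cyc1 differed by 0.54 ± 0.14 in lung, by -0.22 ± 0.09 in heart, and by 0.01 ± 0.08, -0.02 ± 0.07 and -0.04 ± 0.08 in brain, kidney and liver (padj of the difference 3.8e-05). Cox5b, a nuclear subunit of cytochrome oxidase, differed by 0.27 ± 0.10 in lung, -0.22 ± 0.09 in heart and -0.14 ± 0.05 in kidney (padj of the difference 0.00084), and no tissue alone was called for it. Its lung values were 10.11, 10.04, 10.09 and 9.67 in exposed and 9.60, 9.99, 9.59 and 9.66 in air rats, so that Rat731 and Rat733 overlapped the other group. The count between tissues was 5 without Rat729, whose lung carried muscle and brown fat genes and whose heart carried liver genes, and 6 without Rat732.

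At 24 h the response of 1 member differed between the solid tissues, Cox5b (padj = 0.045, against 0.625% of all genes), and 15 members stood at an unadjusted p under 0.05, beside 8.66% of all genes. It was 0.24 ± 0.07 in liver, 0.10 ± 0.05 in kidney, 0.04 ± 0.10 in lung, -0.08 ± 0.07 in brain and -0.21 ± 0.09 in heart. In liver it stood at 10.96, 10.69, 10.68 and 10.67 in exposed and at 10.55, 10.49, 10.48 and 10.50 in air rats, and in heart at 11.85, 11.96, 11.87 and 11.94 against 12.05, 12.14, 12.16 and 12.08. Neither organ had overlap, with liver on the higher and heart on the lower side. The call was lost without the arrays with transcripts of other organs, where 0 members passed, and without most single rats. At 1 h and 6 h, 0 members differed between tissues, beside 3.27% and 1.35% of all genes, and 0 stood at an unadjusted p under 0.05, beside 13.8% and 10.8%.

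**Figure D5:**
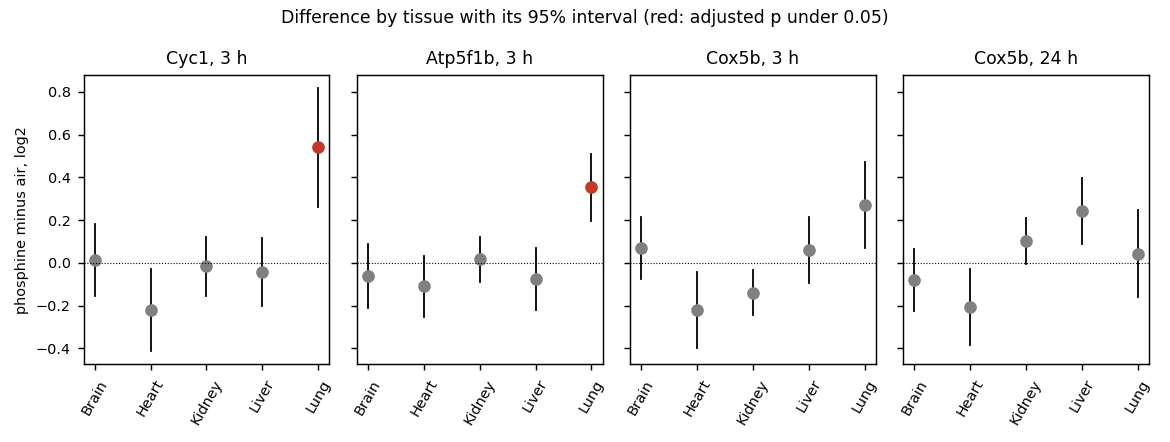
Difference phosphine minus air (vertical axis, log2) of Cyc1, Atp5f1b and Cox5b at 3 h and of Cox5b at 24 h in the 5 solid tissues (horizontal axis), with the 95% interval of the fit. Red points are called in that tissue, which holds for Cyc1 and Atp5f1b in lung, and Cox5b at 24 h lies above 0 in liver and below 0 in heart.

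In heart at 3 h the members lay low together but 0 were called, against 3.33% of all genes. Of the 44 differences 42 were below 0 (95.5%, beside 53.6% of all genes), with a median of -0.15 beside -0.02, and 12 lower members stood at an unadjusted p under 0.05 (27.3%, beside 11.5% of all genes lower). The members share their arrays, so that their directions are not independent of each other. The median was -0.22 in complex II, -0.21 in complex III, -0.14 in complex IV and -0.11 in complex V. Sdha, the flavoprotein subunit of complex II, came nearest to a call and was named for that after its values were seen. It stood at 11.85, 11.28, 11.47 and 11.71 in exposed and at 11.90, 11.86, 12.00 and 11.94 in air rats, with no overlap (-0.35 ± 0.10, padj = 0.060). The heart isoforms Cox6a2 and Cox8b differed by -0.22 ± 0.09 and -0.20 ± 0.09 (padj = 0.20 and 0.26), and Atp5f1b by -0.11 ± 0.07 (padj = 0.41). Exposed Rat729 was the lowest of the 8 rats for each of these.

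The heart array of exposed Rat729 carried liver genes: the mean of 8 hepatocyte genes was 12.35 there and at most 4.28 in the air rats. Its 6 cardiomyocyte genes averaged 10.98, against 12.42 to 12.58 in the air rats. Its member median was 11.52, against 11.97 to 12.04 in the other exposed and 12.00 to 12.09 in the air rats. Without it the median difference was -0.03, with 28 of 44 members below 0, 2 at an unadjusted p under 0.05 and 0 called. Macrophage genes averaged 6.61 to 7.48 in exposed and 6.28 to 6.51 in air hearts, with no overlap. The 3' minus 5' difference of control transcripts was 0.19 higher in the exposed hearts (two-sided exact permutation p = 0.086, the smallest possible with 4 against 4 being 0.029). The part of either in the result was not tested. Without exposed Rat728, 4 members were called lower. With the rat as a block over the 5 tissues, 6 members were called lower. The liver-bearing heart array of Rat729 was kept in both of these fits.

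At 1 and 6 h the heart gave 0 called members, beside 1.33% and 0.35% of all genes, and 1 and 0 members at an unadjusted p under 0.05, beside 10.9% and 9.37%. At 24 h, 0 were called (0.0819% of all genes) and 4 lower members stood at an unadjusted p under 0.05 (9.09%, beside 4.09% of all genes lower and 7.61% in either direction). At that time 40 of the 44 differences were below 0 (90.9%, beside 52.2%), the median was -0.11 beside -0.01, and 14 members lay lower in every exposed than in every air rat (31.8%, beside 4.41%). Sdhd, a membrane anchor of complex II named after its values were seen, stood at 11.47, 11.66, 11.61 and 11.65 in exposed and at 11.81, 11.84, 11.80 and 11.84 in air rats (-0.22 ± 0.09, padj = 0.48). Cox8a stood at 11.22, 11.27, 11.26 and 11.27 against 11.31, 11.43, 11.40 and 11.51 (-0.16 ± 0.08, padj = 0.66). Atp5f1b stood at 12.78, 12.93, 12.99 and 13.00 against 13.04, 13.01, 13.01 and 13.01 (-0.09 ± 0.07, padj = 0.77). These groups did not overlap, while those of Cox7a1 did (0.01 ± 0.22, padj = 0.996).

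Here too arrays stood apart. The exposed heart of Rat741 held hepatocyte genes at 11.95 and that of Rat749 genes of alveolar and airway epithelium at 9.95, against tissue medians of 4.28 and 3.58. The member medians were 11.77 and 11.97 on these arrays, 11.99 and 12.02 in exposed Rat742 and Rat748, and 12.04 to 12.09 in the air rats. Without both arrays the median difference was -0.05, 31 of 44 were below 0 and 3 stood at an unadjusted p under 0.05, with 0 called. The cardiomyocyte genes averaged 12.28 to 12.45 in exposed and 12.53 to 12.61 in air hearts, and macrophage genes 6.63 to 7.13 and 6.21 to 6.53. White fat genes averaged 5.25 to 5.45 and 5.54 to 6.30. None of these lists overlapped. Ucp1 of brown fat stood at 5.04, 7.12, 2.77 and 2.75 in exposed and at 8.18, 9.14, 8.99 and 3.77 in air hearts, which overlap. The part of these genes in the result was not tested.

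In liver at 24 h the members lay high together, and 0 were called, with 0% of all genes. Of the 44 differences 39 were above 0 (88.6%, beside 45.6%), with a median of 0.11 beside -0.02. At an unadjusted p under 0.05 stood 15 members, all higher (34.1%, beside 2.92% of all genes higher and 7.14% in either direction), and 11 lay higher in every exposed than in every air rat (25%, beside 1.12%). All 16 members of complex V, all 4 of complex II, 7 of 8 of complex III and 12 of 16 of complex IV were above 0. Atp5me, a small membrane subunit of the ATP synthase and the member with the lowest p, stood at 10.03, 9.87, 9.89 and 9.85 in exposed and at 9.72, 9.47, 9.36 and 9.36 in air rats, with no overlap (0.43 ± 0.11, padj = 0.44). Cox8a overlapped (0.19 ± 0.09, padj = 0.69), as did Atp5f1b (0.12 ± 0.07, padj = 0.76), Uqcrc1 (0.10 ± 0.07, padj = 0.83) and Sdhb (0.01 ± 0.07, padj = 0.997).

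The liver of exposed Rat741 at 24 h carried kidney genes, with proximal tubule genes at 9.74 and distal nephron genes at 8.58 against liver medians of 5.07 and 2.85. Its member median was 10.78, against 10.57 to 10.61 in the other exposed and 10.47 to 10.56 in the air rats. Without it the median difference was 0.08, with 36 of 44 above 0, 10 at an unadjusted p under 0.05 and 0 called. With the rat as a block and the liver array of Rat741 kept, 3 members were called higher.

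Earlier the liver gave 0 called members at 1, 3 and 6 h, beside 0.335%, 3.85% and 0.223% of all genes, and 1, 0 and 4 members at an unadjusted p under 0.05, beside 6.76%, 15.6% and 9.21%. At 6 h, 34 of 44 were above 0 (77.3%, beside 47.6% of all genes) and 14 lay higher in all 4 exposed than in both air rats (31.8%, beside 7.87%), with a median of 0.06. Macrophage genes averaged 7.87 to 8.06 in exposed and 8.19 to 8.30 in air livers at 6 h and T and NK lymphocyte genes 3.09 to 3.63 and 3.65 to 3.85, with no overlap in either list. Proximal tubule genes reached 6.07 on an exposed array, against 5.03 to 5.12 in the air rats, and the part of these genes was not tested. At 1 h the muscle isoforms were high on 1 array. Cox6a2 was at 7.58 in exposed Rat719 and at 2.95 to 3.30 in the 3 other exposed rats, and Cox8b at 8.24 and at 2.74 to 3.31. The 5 skeletal muscle genes averaged 8.56 on that array against a liver median of 3.00. The differences, 1.29 ± 0.64 for Cox6a2 (padj = 0.77) and 1.15 ± 0.79 for Cox8b (padj = 0.94), became 0.18 ± 0.38 and -0.14 ± 0.53 without it (padj = 1.0 for both). At 3 h Cox6a2 and Cox8b were likewise highest in exposed Rat730, at 5.49 and 6.46.

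In blood at 3 h, 3 members (6.82%) were called lower and 0 higher, beside 6.6% of all genes called and 5.8% lower, a share near the background. At an unadjusted p under 0.05 stood 9 members (20.5%, beside 22.4% of all genes), and 7 lay lower in every exposed than in every air rat (15.9%, beside 11.7%). Atp5mc3, a gene for the ring-forming subunit c of the ATP synthase, stood at 8.96, 7.76, 8.79 and 8.52 in exposed and at 9.60, 9.36, 9.68 and 9.63 in air rats (-1.06 ± 0.27, padj = 0.026). Uqcrc2, a core subunit of complex III, stood at 8.36, 7.49, 7.94 and 8.18 against 8.67, 8.84, 8.95 and 9.24 (-0.93 ± 0.28, padj = 0.049), and a second probe set of it differed by -1.37. Sdhb stood at 7.69, 7.01, 7.80 and 7.85 against 8.33, 8.49, 8.45 and 8.63 (-0.89 ± 0.26, padj = 0.046). None of the 3 overlapped, and Rat729 was the lowest for each.

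All 4 members of complex II were below 0 in blood at 3 h, with a median of -1.01. Complexes III, IV and V had medians of 0.06, 0.03 and 0.01. In these, 3, 7 and 8 members were also below 0, and 5, 9 and 8 were above. Atp5mc1 (-0.94), Uqcrfs1 (-0.71) and Atp5f1a (-0.64) were among those below 0 and were not called. The median was -0.59 for genes of the tricarboxylic acid cycle and pyruvate dehydrogenase and -0.52 for assembly factors of complexes II to V. It was -0.12 for complex I subunits and -0.07 over all genes. Sdhd has a second probe set, which differed by -0.36 where the brighter one differed by -1.14, and with it the complex II median was -0.62. Sdha stood at 7.41, 5.57, 6.56 and 7.12 in exposed and at 7.98, 7.59, 7.999 and 7.99 in air rats (-1.22 ± 0.56, padj = 0.20). Complex II had a median of -0.45 at 1 h, with all 4 members below 0, and of -0.12 at 6 h, with 3 of 4 below 0 and 0 called at either time. With the second Sdhd probe set, which differed by 0.15 and 0.09, these medians were -0.26, with 3 of 4 below 0, and 0.00, with 2 of 4 below 0. Cyc1, Cox4i1 and Atp5f1b did not follow at 3 h, with -0.01 ± 0.21, -0.17 ± 0.20 and 0.03 ± 0.19 (padj = 0.98, 0.68 and 0.94).

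The exposed blood arrays of 3 h differed from the air arrays as a whole. Their 75th percentile of all genes was 6.12 to 6.36, against 6.68 to 6.86. The 3 B lymphocyte genes averaged 6.45 to 7.71 in exposed and 8.20 to 9.22 in air rats, and the 6 T and NK lymphocyte genes 7.41 to 7.98 and 7.88 to 8.35. With the 75th percentile as a covariate 0 members were called, and Atp5mc3 differed by -0.23 (padj = 0.94). That percentile did not overlap between exposed and air rats at 3 h, so its part and that of exposure cannot be cleanly told apart. The part of cell numbers in the falls was not tested. Leaving out exposed Rat729 or air Rat732, Rat738 or Rat739 also left 0, and leaving out exposed Rat730 left 1.

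In blood at 1 h and 6 h, 0 members were called, beside 0.00744% and 0.0521% of all genes, with 2 and 0 at an unadjusted p under 0.05, beside 7.72% and 10.2%. At 24 h the 2 exposed samples had Sdhb at 8.40 and 8.47, Uqcrc2 at 8.95 and 9.05 and Atp5mc3 at 9.48 and 9.57, with no air sample to set them against.

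Coactivators of mitochondrial genes rose in liver, heart, kidney and lung at times when no member was called. Ppargc1a, a coactivator that drives mitochondrial gene expression, was called higher in liver at 1 h (2.56 ± 0.42, padj = 0.0064) and at 3 h (3.71 ± 0.42, padj = 1.1e-05) and in lung at 1 h (0.98 ± 0.21, padj = 0.0053). Ppargc1b, its relative, was higher in heart (0.87 ± 0.15, padj = 0.0015), kidney (0.72 ± 0.11, padj = 0.00044) and liver (1.57 ± 0.26, padj = 0.0070) at 1 h and in liver at 3 h (1.77 ± 0.26, padj = 0.00018). Without the muscle-bearing liver of Rat719, the differences at 1 h were 2.26 ± 0.40 for Ppargc1a (padj = 0.027) and 1.44 ± 0.29 for Ppargc1b (padj = 0.05001, not called). In those 4 tissues 0 members were called at 1 h, and in liver 0 at 3 h. Of the 13 regulators measured, 3 were called higher in liver at 3 h, the other being Pprc1 (3.85% of all genes called), and 2 lower in blood at 3 h, Tfam and Yy1 (5.8% of all genes lower). Pprc1 was also higher in kidney at 3 h (6.39% of all genes called), and in lung at 3 h Tfb2m was higher and Yy1 lower (11.6% called). Leaving out the 4 lung arrays with high brown fat genes kept 1 exposed rat against 3 air rats. Tfb2m then differed by 0.38 ± 0.14 instead of 0.32 ± 0.08, and Yy1 by -0.24 ± 0.17 instead of -0.38 ± 0.11. Sdhaf1, a called assembly factor of lung at 3 h, then differed by 0.15 ± 0.10 instead of 0.25 ± 0.06. Over the 27 assembly factors of complexes II to V, at most 2 were called in a solid tissue and time (2 in heart at 3 h, kidney at 1 h and lung at 3 h, beside 3.33%, 3.12% and 11.6% of all genes), and 4 were lower in blood at 3 h, beside 5.8% of all genes lower.

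The neighbouring complex I, with 34 subunits measured, had 3 called higher in lung at 3 h (Ndufa8, Ndufs3, Ndufs7), beside 5.84% of all genes higher, 3 lower in blood at 3 h, beside 5.8% of all genes lower, and 0 elsewhere. With all arrays, Ndufa8, Ndufs3 and Ndufs7 differed by 0.25 ± 0.08, 0.30 ± 0.10 and 0.33 ± 0.09. Without the 4 lung arrays with high brown fat genes, they differed by 0.18 ± 0.13, 0.19 ± 0.16 and 0.20 ± 0.15. That fit held 1 exposed rat against 3 air rats. The complex I median was 0.11 in lung at 3 h, -0.18 in heart at 3 h, -0.14 in heart at 24 h and 0.10 in liver at 24 h. This median and those of the lists below include the arrays with transcripts of other organs. Of 13 genes listed for the tricarboxylic acid cycle and pyruvate dehydrogenase, 4 were called higher in lung at 3 h, beside the same 5.84%. Among them, Pdha1 of pyruvate dehydrogenase was also called at 1 h (5.8% of all genes called). Of the 7 carriers measured for ADP, ATP, phosphate and the outer pore, 0 were called in any comparison. The list of cycle and pyruvate dehydrogenase genes and the carriers had medians of -0.59 and -0.57 in blood at 3 h, beside -0.07 over all genes. In lung at 3 h these medians were 0.24 and 0.15, and in heart at 3 h -0.19 and -0.15.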

How the data were processed

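Total RNA of 174 samples, each a tissue of 1 rat, was measured on 1-colour Affymetrix rat arrays after 3' in vitro transcription labelling, per the labels' protocols. The authors deposited log2 values per probe set, from 1.74 to 14.13, and the submitters' processing notes name RMA and Partek, with no versions. Background correction and normalization were kept as deposited, and if the tissues were normalized in 1 run is not given in the sources used here. The number of arrays limits the precision.

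The platform annotation pairs 19063 of the 31139 probe sets with 1 gene, 572 with several and 11407 with no gene, and a further 97 serve as controls. The brightest probe set by its mean over all arrays stood for each of 13438 genes. Each tissue was fitted with all its groups in limma 3.58.1 (R 4.3.3, lmFit and eBayes), and p-values were adjusted by Benjamini-Hochberg over all genes. Differences between the 5 solid tissues or between times were tested with limma's moderated F in 1 fit of the arrays concerned. These fits were tested on simulated data with independent noise per array. The simulation held no arrays with another organ's transcripts and no correlation within a rat. Plots were drawn with python 3.11.15 and matplotlib 3.10.9.

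The members and lists were chosen with earlier results of these data known. Named were all called members of a comparison (at most 6, otherwise the 3 largest in each direction), the 3 with the smallest p of each test of differences, and a fixed panel: Sdhb, Uqcrc1, Cyc1, Cycs, Cox4i1, Cox4i2, Cox6a1, Cox6a2, Cox7a1, Cox7a2, Cox8a, Cox8b, Atp5f1b, Atp5f1a and Atp5if1. Sdha, Sdhc, Sdhd, Atp5mc1, Atp5me, Atp5pb, Uqcrfs1 in blood, Cox5b outside its tests and the other genes of the pathway were named after their values were seen.

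The replicate is the rat, whose number the sample titles give. Exposed and air groups share no rat, and the 5 solid tissues of a rat do. Over pairs of tissues the mean correlation of the rats' deviations was 0.01 to 0.12, and the consensus correlation within a rat was 0.0268. No 2 arrays held identical values. Alternatives were quantile normalization or median centring, the mean of a gene's probe sets, a filter at the 40th percentile, array weights, pooled air rats, only the groups compared, the rat as replicate block, arrays with another organ's transcripts left out, and each rat left out. A 75th percentile covariate in blood and leaving out lung arrays at 3 h with the brown fat list at least 2 log2 above the lung median were chosen after seeing the data.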

Additional observations from a re-analysis of the deposited data

Results flagged for a closer look

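Of 126 groups of 4 or 5 rats checked for 1 rat far from the others by Dixon's criterion, about 1 in 20 would be marked by chance. The member median was low in the exposed heart of Rat729 at 3 h, at 11.52 against 11.97 to 12.04, and high in the air kidney of Rat744 at 24 h, at 11.51 against 11.46 in the 3 other rats. Cox5b stood apart in 4 groups. It was at 11.38 in the exposed kidney of Rat731 at 3 h against 11.23 to 11.26, and at 9.67 in the lung of the same rat against 10.04 to 10.11. It was at 9.99 in the air lung of Rat733 at 3 h against 9.59 to 9.66, and at 10.96 in the exposed liver of Rat741 at 24 h against 10.67 to 10.69.

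Atp5f1b was at 12.10 in the air brain of Rat738 at 3 h against 12.32 in the other rats. Cox6a2 and Cox8b were at 7.58 and 8.24 in the exposed liver of Rat719 at 1 h against at most 3.30 and 3.31. Cox4i2 was at 6.01 in the air heart of Rat733 at 3 h against 4.35 to 4.53. Sdha was at 7.59 in the air blood of Rat733 at 3 h against 7.983 to 7.999.

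The response to phosphine differed between solid tissues at 3 h for Atp5f1b (limma padj = 3.6e-05), Cyc1 (padj = 3.8e-05) and Cox5b (padj = 0.00084), and at 24 h for Cox5b (padj = 0.045). Over the 4 times in lung it differed for Atp5f1b (padj = 0.027). The lung rises of Cyc1 and Atp5f1b were smaller without the arrays with high brown fat genes, which left a single exposed rat. The Cox5b call at 24 h was lost without the arrays with transcripts of other organs and without most single rats. The Atp5f1b call over times was lost without any of several single rats.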

How the results depend on the processing

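Under the alternatives run, 353 counts of called members stayed within 1.5 times the value reported and 26 did not. The reported count was 0 in 21 of the 23 comparisons. Of the counts of members whose change differed between solid tissues, 112 stayed and 28 moved. For differences between times, 160 counts stayed and 10 moved. Among the median differences, 372 moved by less than the spread between rats and 7 by more. No called result changed sign. The cause of the moves was not tested. In lung at 3 h the count of 7 was 11 with array weights, 3 with quantile normalization, 0 without the brown fat arrays (median -0.036) and 1 (Cox4i2, lower) in a fit of only the 2 groups. In blood at 3 h the count of 3 was 0 with the 75th percentile covariate, with only the 2 groups, with pooled air rats or with quantile normalization, and 1 with median centring. Pooled air rats gave 3 members in heart and in kidney at 3 h and 1 in kidney at 6 h, where 0 were called, and the filter on dim genes 1 in heart at 3 h. The median in heart at 3 h was -0.034 without other-organ arrays, that in liver at 6 h 0.14 with median centring, and that in blood at 6 h -0.065 with quantile normalization. With the rat as replicate block and all arrays kept, 6 members were called in heart at 3 h and 3 in liver at 24 h. No other count moved by over 1.5 times with the block. Between tissues, quantile normalization gave 6 members at 3 h, and median centring or leaving out other-organ arrays gave 0 at 24 h; over times in lung, quantile normalization gave 0.

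Leaving out each rat in turn gave counts of 3 to 9 in lung at 3 h, 0 to 4 in heart at 3 h and 0 to 3 in blood at 3 h. It gave 5 to 13 members between tissues at 3 h, 0 to 2 at 24 h, and 0 to 2 over times in lung. Medians ran from -0.20 to -0.034 in heart at 3 h, from 0.042 to 0.12 in liver at 6 h and from -0.065 to 0.15 in lung at 6 h. The spread between rats limits blood most, with median standard errors of 0.22 to 0.34.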

Other observations

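In lung at 3 h, Pdha1 of pyruvate dehydrogenase (0.44 ± 0.08, limma padj = 0.00058) was called higher. The citrate cycle genes Cs (0.40 ± 0.12, padj = 0.036), Idh3b (0.39 ± 0.12, padj = 0.039) and Idh3g (0.36 ± 0.10, padj = 0.025) were also called higher. Without the 4 arrays with high brown fat genes, which left 1 exposed against 3 air rats, none of them was called, at 0.47 ± 0.13 for Pdha1 (padj = 0.090), 0.32 ± 0.20 for Cs (padj = 0.64), 0.30 ± 0.16 for Idh3b (padj = 0.49) and 0.24 ± 0.14 for Idh3g (padj = 0.57). In lung at 3 h Lonp1, a mitochondrial protease, differed by 0.43 ± 0.12 (padj = 0.020) and Pdk1, a kinase that holds back pyruvate dehydrogenase, by 0.70 ± 0.20 (padj = 0.027), and without those arrays by 0.27 ± 0.21 (padj = 0.735) and 0.30 ± 0.34 (padj = 0.87). Cox20, a chaperone for the cytochrome oxidase subunit COX2, was called lower in lung (-0.55 ± 0.18, padj = 0.043), heart (-0.97 ± 0.27, padj = 0.045) and blood (-1.53 ± 0.32, padj = 0.0094) at 3 h. Without the liver-bearing heart of Rat729 the heart difference of Cox20 was -0.90 ± 0.30 (padj = 0.13), and without the 4 lung arrays with high brown fat genes the lung one was -0.58 ± 0.30 (padj = 0.51), so that neither was called. Hif1a, the oxygen-sensing factor, was called higher in kidney at 1 h (0.55 ± 0.11, padj = 0.0059) and 3 h (0.55 ± 0.11, padj = 0.0028) and lower in blood at 3 h (-1.67 ± 0.45, padj = 0.031). Whether these differences differ between tissues was not tested here.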
